A study of Rattus norvegicus with 12 samples.

Results

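In whole lung of adult rats, 88 transcripts of 15435 examined set the hypoxia group apart from normoxia and from both reoxygenation schedules at once. The 88 were chosen by their measured values, by a fixed rule on the deposited table. Transcripts with a value of 1 or more in at least 3 of 12 libraries were kept. A transcript was a member when its 3 hypoxia libraries lay all above, or all below, the other 9 libraries, and when the mean log2(FPKM + 1) of hypoxia differed from the mean of the other 9 by 0.3 or more. FPKM scales fragments to transcript length and library size. Transcripts in which all 9 libraries from the chamber lay on one side of normoxia were then dropped, which leaves out those where every reoxygenated library stood between hypoxia and normoxia. Of the members, 47 were higher and 41 lower in hypoxia. The measured values themselves chose the members, so their distance from the other groups is given as a description with no test.

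The study kept rats of the strain labelled SD under 4 conditions for 2 weeks and asked whether short daily reoxygenation prevents the pulmonary hypertension of high altitude. Hypoxia animals (H) stayed in a hypobaric chamber at 405 mmHg, which simulates 5000 m. Animals of the I3 group stayed in the chamber and received 42% oxygen for 3 h per day, given intermittently. Animals of the C3 group received the same gas for 3 h per day without a break. Normoxia animals (N) stayed at the laboratory altitude of 400 m in 21% oxygen. Each group had 3 libraries of total lung RNA. No genetic change was described for any group, and the labels do not say whether a library came from a single animal or a pool. All p-values below therefore rest on the variation among these libraries, and that variation may be technical. The members carry rat Ensembl transcript identifiers, which neither the deposited table nor the reference tables used here pair with gene names. Members are thus described by their values, their order by size and their pattern across libraries, and at most 2 identifiers are printed for each direction of a comparison. For the same reason the lung label was not checked against marker genes, the lists of hypoxia, pulmonary hypertension and cell type genes were not applied, and no sequences are shown.

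Lung arteries constrict when alveolar oxygen is low, and sustained low oxygen thickens their walls and raises the pressure against which the right ventricle works. Within cells, low oxygen stabilises hypoxia-inducible factors, which switch on genes of glycolysis, vessel growth and red cell production, and restored oxygen lets these factors be degraded. In whole tissue, fewer cells of a type and less RNA per cell cannot be told apart. A transcript is also one of several RNA forms that a gene can give, and reads shared between the forms are divided among them by estimation.

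The sums of the deposited values ranged from 323894 to 361337 per library and do not measure depth, which is unknown. Libraries of one group had Spearman correlations of 0.90 to 0.93 across the 15435 transcripts, and libraries of different groups 0.88 to 0.92. Along the leading principal component (15.1% of the variance) N replicates 2 and 3 stood apart at 60.3 and 35.6, beyond the range of -21.7 to 10.1 of the remaining libraries. Along the next (10.99%) replicate 3 of H was at 36.4 and replicate 3 of I3 at 39.4, beyond a range of -25.7 to 10.2.

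The set was small beside those of C3 and N. Before any threshold on size, H lay above all other libraries in 58 transcripts (0.376% of those examined) and below them in 64 (0.415%). With the size threshold these were 49 and 46. The same thresholds put I3 apart from the other 9 libraries in 34 transcripts above and 56 below, C3 in 202 above and 178 below, and N in 362 above and 259 below. H was thus apart in 95 transcripts, a number close to the 90 of I3 and below the 380 of C3 and the 621 of N. Without the filter on low values 102 transcripts met the rest of the rule, of which 88 passed the filter.

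**Figure D1:**
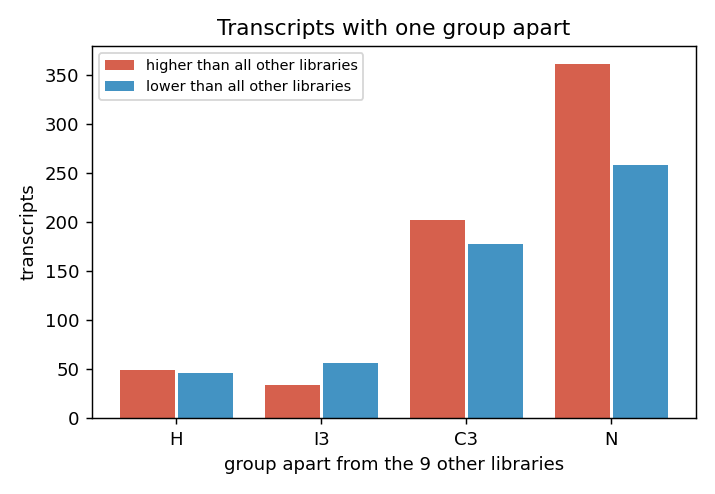
Number of transcripts (vertical axis) in which the 3 libraries of 1 group lay all above (red) or all below (blue) the other 9 libraries, with a mean difference of at least 0.3 on the log2(FPKM + 1) scale, for each group in turn. The bars of H (49 and 46) are close to those of I3 (34 and 56) and shorter than those of C3 and N.

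The members that were higher in H differed from the other 9 libraries by 0.30 to 3.53 on the log2(FPKM + 1) scale, with a median of 0.58. A difference of 1 or more was reached by 10 of the 47. The largest was that of ENSRNOT00000003343, which had 35.6, 27.8 and 34.4 FPKM in H, against 1.76, 1.5 and 2.94 FPKM in I3, 1.71, 20.5 and 0.75 FPKM in C3 and 2e-06, 1.06 and 1.54 FPKM in N. Its mean in H was 9.26 times that of the other libraries. A single C3 library, replicate 2, stood far above the other 8 and closest to H, and every I3 and N library was at 2.94 FPKM or below. ENSRNOT00000067543 had 16.3, 14.3 and 17.1 FPKM in H, against 0.11, 4.08 and 0.36 FPKM in I3, 4.43, 11.1 and 1.07 FPKM in C3 and 0, 10.1 and 6.10 FPKM in N. Its H libraries were alike, whereas the I3, C3 and N libraries overlapped one another over a range of 3.60 on the log2 scale.

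A compact pattern was rarer. The eighth of the 47 members by size had 10.3, 11.7 and 11.3 FPKM in H, against 5.52, 4.92 and 4.84 FPKM in I3, 4.24, 3.76 and 2.97 FPKM in C3 and 3.28, 3.83 and 3.68 FPKM in N. The gap between its lowest H library and the highest other library, 0.79 on the log2 scale, was larger than the whole range of the other 9 libraries, 0.72. It was the only one of the 47 with this property, which 0.0259% of all transcripts examined had. Its I3 libraries all lay between those of H and those of C3 and N. The tenth, of low abundance, had 2.34, 2.01 and 1.83 FPKM in H, against 0.55, 0.32 and 0.31 FPKM in I3, 0.23, 0.17 and 0.39 FPKM in C3 and 0.23, 0.23 and 0.89 FPKM in N. Its H libraries stood clear of all others, with a gap of 0.58, and 8 of the other 9 libraries were at or below 0.55 FPKM. It reached 1 FPKM only in the 3 H libraries, so it passed the filter through H alone. So did the member ranked 20, with 1.37, 1.07 and 1.16 FPKM in H and at most 0.93 FPKM in the other 9 libraries. The seventh lay near the limit of the filter, at 1.57, 1.72 and 1.88 FPKM in H, against 0.034, 0 and 0.014 FPKM in I3, 0.021, 0.019 and 0 FPKM in C3 and 0, 0.038 and 1.06 FPKM in N. Outside H N replicate 3 alone stood clear of 0.

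The members that were lower in H differed by -0.32 to -3.65, with a median of -0.68, and 9 of the 41 reached a difference of -1 or beyond. ENSRNOT00000028907 had the largest difference on the log2(FPKM + 1) scale with all libraries, though the third member passed it with a pseudocount of 0.1 (-4.98, against -4.40) and without H replicate 1 (-4.10, against -3.73). ENSRNOT00000028907 had 0.88, 0.52 and 0.64 FPKM in H, against 2.06, 0.97 and 329 FPKM in I3, 1.33, 309 and 266 FPKM in C3 and 310 FPKM, 1.76 and 1.41 in N. In 5 of the other 9 libraries it was thus near the H level, and in 4 it was at 265.9 FPKM or more. ENSRNOT00000080270 had 8.99, 5.16 and 6.98 FPKM in H, against 118.8, 120.2 and 130.7 FPKM in I3, 102.9, 73.6 and 90.7 FPKM in C3 and 107.6, 42.4 and 132 FPKM in N. Its mean in H was 0.069 times that of the other libraries, and its gap of 2.12 was the widest of all 88 members.

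Other members lower in H showed a similar contrast between compact and scattered values. The thirteenth of the 41 by size had 1.46, 2.08 and 1.5 FPKM in H, against 4.19, 3.75 and 3.87 FPKM in I3, 3.21, 3.21 and 4.55 FPKM in C3 and 4.41, 3.46 and 3.49 FPKM in N. Its gap of 0.45 exceeded the range of the other 9 libraries, 0.40, a property it shared among the 41 with ENSRNOT00000080270 alone. The fourth had 0.39, 0.76 and 0 FPKM in H, against 4.51, 4.66 and 14.8 FPKM in I3, 10.3, 4.32 and 3.69 FPKM in C3 and 5.87, 2.14 and 3.25 FPKM in N. All of its libraries outside H were at 2.14 FPKM or more, with a gap of 0.84. The third was a case in which the H libraries themselves differed, with 13.6, 0 and 0 FPKM in H, against 18.5, 17.6 and 15.1 FPKM in I3, 15.4, 17.1 and 16.7 FPKM in C3 and 14.9, 15.7 and 14.5 FPKM in N. The sixth and the eighth were listed at 0 in all 3 H libraries, where an estimated abundance of 0 can also be a failed estimate, and the sixth ranged from 0.05 to 3.27 FPKM in the other groups.

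**Figure D2:**
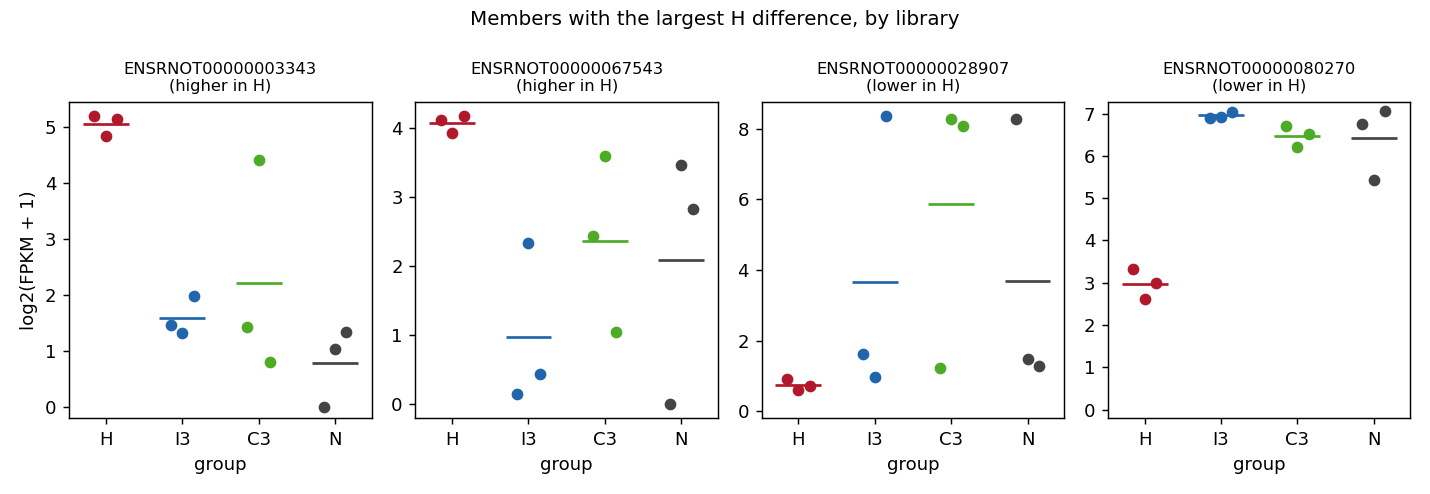
Values by library, as log2(FPKM + 1) on the vertical axis, of the pair of members with the largest difference in each direction. Points are libraries, bars are group means, and groups run H, I3, C3, N. ENSRNOT00000080270 is at 42.4 to 132 FPKM in the 9 libraries outside H, clear of its H level, whereas ENSRNOT00000028907 is near its H level in 5 of them.

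The most abundant member of each direction differed less. Among those higher in H it was the twelfth by size, with 235, 239.8 and 219.8 FPKM in H, against 180.9, 181.7 and 156.6 FPKM in I3, 106.2, 125 and 80.8 FPKM in C3 and 68.6, 157.1 and 126.2 FPKM in N. Its I3 libraries were the closest group to H, at 173 ± 14.3 FPKM in I3 against 232 ± 10.4 FPKM in H (SD, n = 3 each). Among those lower in H it was the seventeenth, with 111.9, 105.4 and 141.6 FPKM in H, against 167.7, 174.1 and 182.2 FPKM in I3, 171.2, 189.3 and 176 FPKM in C3 and 388, 180.7 and 279 FPKM in N. I3 and C3 were alike in this transcript, and N replicates 1 and 3 stood above both. The members as a whole were of ordinary abundance, with a median of 8.13 FPKM over the 12 libraries, against 7.40 FPKM over all transcripts examined.

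**Figure D3:**
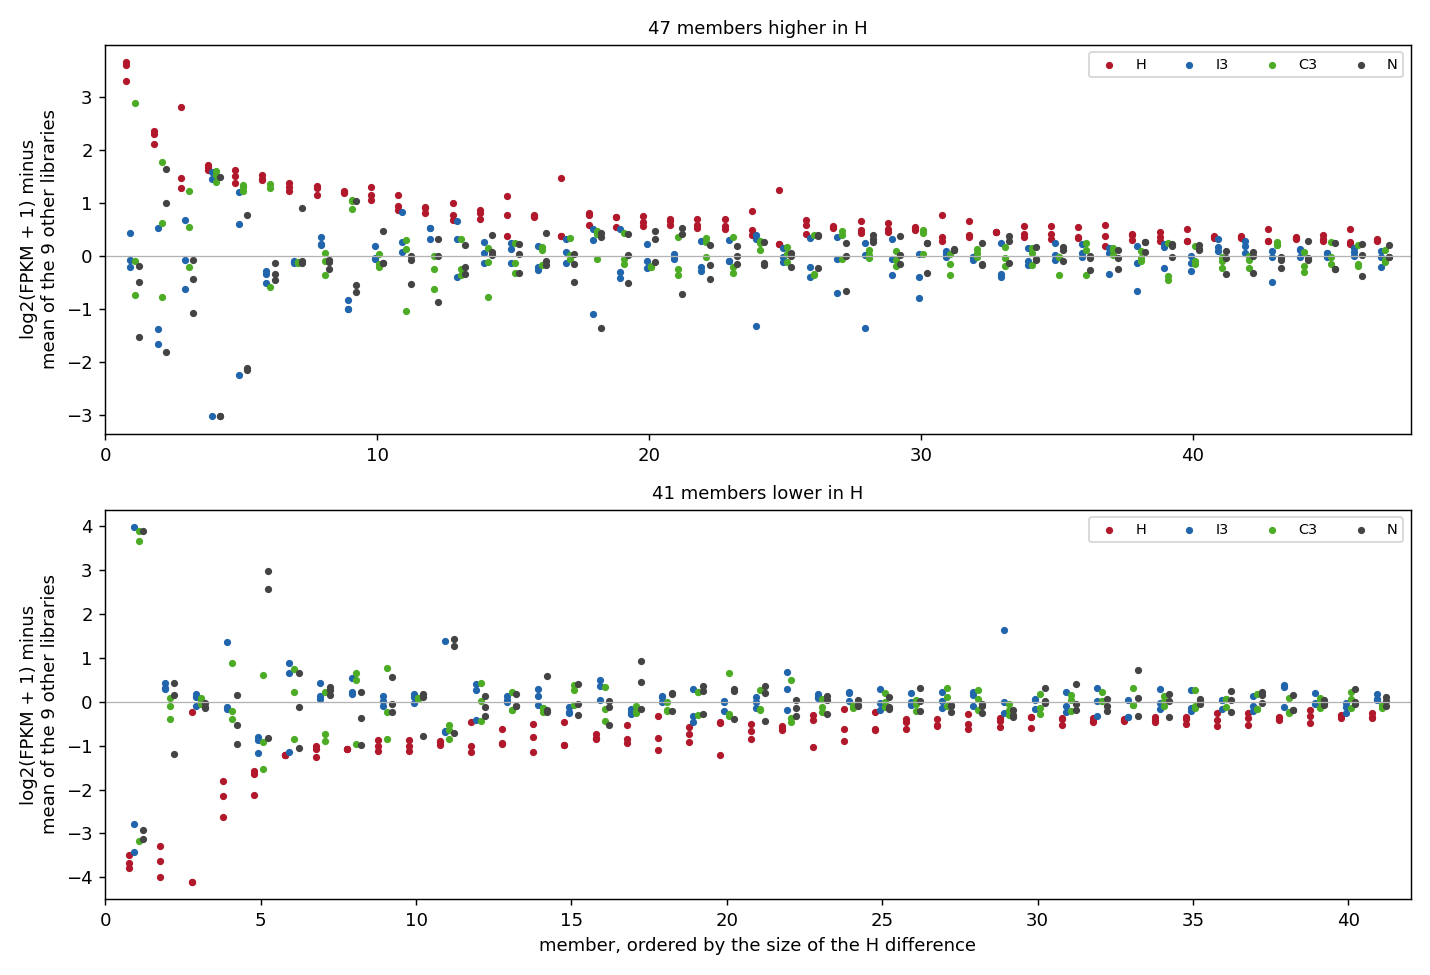
All 88 members, with log2(FPKM + 1) of each library minus the mean of the 9 libraries outside H on the vertical axis and the members in order of size on the horizontal axis. Red H points stand at the edge of every member by the rule, and the I3, C3 and N points behind them overlap, with single points far off in the first members of each panel.

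For most members the separation from H was narrow. The gap between H and the nearest other library had a median of 0.07 on the log2 scale. It was under 0.1 in 56 of the 88 (99.8% of all transcripts, counting those where H overlapped the rest). It was 0.3 or more in 8 (0.0583% of all transcripts). Gaps above 0 are fixed by the rule, so nothing is read from these counts. The nearest library belonged to C3 in 34 members, to N in 32 and to I3 in 22. The H library closest to the rest was replicate 1 in 33 members, replicate 2 in 33 and replicate 3 in 22. The largest step between neighbouring values among the other 9 libraries was wider than the gap to H in 77 of the 88 (87.5%). The largest step was wider than the gap in 99.9% of all transcripts examined, where H mostly overlapped the rest. In 13 members, or 14.8% against 11.4% of all transcripts examined, that step was 1 or more on the log2 scale. None of these 13 steps kept every group whole, since it divided the I3 libraries in 9, the N libraries in 8 and the C3 libraries in 4. The ninth of those higher in H was one of the 13, and it is described below because its step followed the schedules. In the eleventh of those lower in H, which had 13.4, 13.6 and 12.6 FPKM in H, I3 replicate 2 and N replicates 2 and 3 stood at 69.2, 64.5 and 72.1 FPKM while the other 6 libraries lay between 14.1 and 17.9 FPKM.

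**Figure D4:**
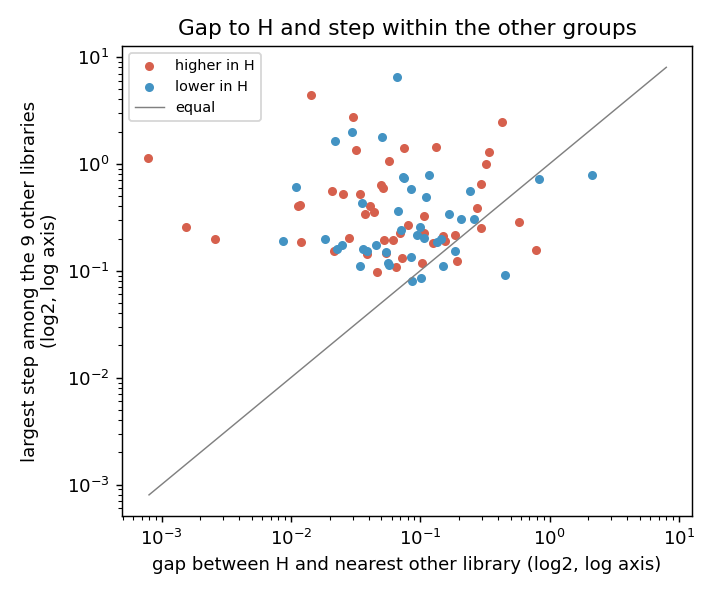
For each of the 88 members, the gap between H and the nearest other library (horizontal, log axis) and the largest step between neighbouring values among the 9 other libraries (vertical, log axis), both in log2(FPKM + 1). Points above the grey line, 77 of 88, have a wider step within the other groups than the gap that sets H apart. Over all transcripts examined the share was 99.9%.

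The count of members rested on single libraries. Without H replicate 1 the rule found 139 higher and 139 lower, without H replicate 2 it found 227 and 192, and without H replicate 3 it found 136 and 118. Without N replicate 2 it found 102 higher and 61 lower. A rule on fewer libraries is easier to meet, so larger counts follow in part from its construction. Of the 88 members, 83, 85, 82 and 85 were still among those found. Members stay apart by construction when libraries are left out. They can be lost only through the size threshold, the filter or the dropping step, so such numbers do not measure stability. Without H replicate 3 and I3 replicate 3, which stood apart on the second component, 169 were higher and 145 lower, and these included 82 of the 88.

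Limma, a linear model with a shared estimate of the spread, was fitted to all 15435 transcripts, with Benjamini-Hochberg adjustment of the p-values. The rule had used every contrast with H, so nothing is read from the calls of members there. At an adjusted p below 0.05, 2 of the 88 members were called in H against N, where 0.337% of all transcripts were called. In I3 against H the count was 2 (0.0324% of all transcripts), and in C3 against H it was also 2 (0.013%).

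The position of the reoxygenated groups relative to normoxia is also a description from which nothing is read. The rule put I3, C3 and N on the same side of H and dropped transcripts in which all chamber libraries lay on one side of N, so nearness to N is largely built into the members. The mean of I3 was nearer to N than to H in 81 of the 88 members (41.1% of all transcripts), and that of C3 in 76 (39.2% of all transcripts). The mean of I3 lay between those of N and H in 39 members (35.8% of all transcripts) and past N in 49 (26.3%). The mean of C3 lay between those of N and H in 49 members (29.1% of all transcripts) and past N in 39 (26.7%). The median size of the I3 minus N difference was 0.17 on the log2 scale in the members and 0.19 over all transcripts, and that of C3 minus N was 0.17 in the members and 0.23 over all transcripts. In the limma fit 0 members were called in I3 against N, where 0.0907% of all transcripts were called, and 0 in C3 against N, where 1.09% were. At an unadjusted p below 0.05, 8 of the 88 were found in each (10.8% of all transcripts for I3 and 17.4% for C3). The count of 8 for I3 was 4 without I3 replicate 1 and 12 without I3 replicate 2. That for C3 was 4 without C3 replicate 2, 3 without N replicate 3, and 5 without H replicate 1, H replicate 2 or N replicate 2. I3 and C3 are set against the same N libraries here. I3 lay nearer to N than C3 did in 28 of the 47 members higher in H, where 57.8% of all transcripts did so. C3 lay nearer to N than I3 did in 27 of the 41 lower in H, where 42.2% of all transcripts did so. Over all 88 members the split was nearly even, with I3 nearer in 42 and C3 nearer in 46.

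The comparison of the schedules with each other was not used by the rule, which puts both on the same side of H and says nothing of their order. In I3 against C3, 0 of the 88 members were called by limma at an adjusted p below 0.05, and 1 of all 15435 transcripts was (0.00648%). At an unadjusted p below 0.05, 9 members differed, which is 10.2% of the members against 6.65% of all transcripts. Of these, 5 were higher in I3 (3.4% of all transcripts were) and 4 lower (3.25%). The 9 were uneven by direction, with 8 among the 47 members higher in H (17%) and 1 among the 41 lower in H (2.44%). The libraries of I3 and C3 did not overlap in 14 members, or 15.9% against 15.8% of all transcripts. The members ranked 41 and 42 among those higher in H had almost proportional values in every library. Both are counted among the 5 higher in I3 and among the 14, so they are not separate observations. The median size of the difference was 0.19 on the log2 scale in the members and 0.17 over all transcripts. The count of members called was 1 without C3 replicate 1 or without N replicate 3, and 0 without H replicate 3 and I3 replicate 3 together (6 at an unadjusted p below 0.05 in limma). A missed threshold does not show that the schedules acted alike. The 95% interval of the I3 minus C3 difference lay within 0.5 on either side of 0 in 23 members (26.1%, against 32.1% of all transcripts). It lay within 1 in 64 members (72.7%, against 72.4% of all transcripts).

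Among members lower in I3, ENSRNOT00000083957 had 9.14, 9.07 and 10.3 FPKM in I3, against 41.1, 40.4 and 36.5 FPKM in C3. It had 45.8, 45.1 and 46.1 FPKM in H and 11.5, 12.8 and 40.7 FPKM in N. I3 stood with N replicates 1 and 2 at the low level, while C3 stood with N replicate 3 just under H. The I3 minus C3 difference was -1.94 ± 0.36 (SE) on the log2(FPKM + 1) scale, with an adjusted p of 0.376 in limma. The N libraries enter that p through the shared spread, and without N replicate 3 the adjusted p was 7e-05, and 0.00426 when I3 and C3 were fitted without the other groups (7e-05 to 0.79 over its alternatives). The most negative difference was that of ENSRNOT00000028907, at 111 ± 189 FPKM in I3 and 192 ± 167 FPKM in C3 (SD, n = 3 each). Its difference of -2.20 ± 2.54 had a 95% interval from -7.85 to 3.45 (adjusted p = 0.86 in limma). It was -0.86 without I3 replicate 2, -1.18 without I3 replicate 1, -0.99 without C3 replicate 2, -1.10 without C3 replicate 3, -4.56 without I3 replicate 3 and -4.52 without C3 replicate 1, none of which passed (adjusted p of 0.768 to 0.979 in limma). A further 4 members had differences from -1.51 to -1.06.

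Among members higher in I3, the most abundant one already described, ENSRNOT00000075493, stood at 173 ± 14.3 FPKM in I3 and 104 ± 22.2 FPKM in C3. The difference was 0.75 ± 0.26 (SE), with a 95% interval from 0.16 to 1.33, higher in 3 of 3 I3 libraries than in any C3 library, and did not pass (adjusted p = 0.704 in limma). The next largest, 0.67 ± 0.62 (SE; adjusted p = 0.839 in limma), was that of the eleventh member lower in H, in which I3 replicate 2 alone among the I3 and C3 libraries stood high, and it was -0.0109 without that library. The difference after it in size was that of ENSRNOT00000008938, a member lower in H, which had 34.7, 27.9 and 26.5 FPKM in I3, against 13.3, 15.03 and 29.9 FPKM in C3. It had 12.2, 9.99 and 11.5 FPKM in H and 31.1, 32.6 and 28.5 FPKM in N. All I3 libraries were near N, as was C3 replicate 3, while C3 replicates 1 and 2 were close to H. The difference was 0.67 ± 0.25 (SE) and did not pass (adjusted p = 0.712 in limma). Without C3 replicate 3 it was 1.01, and the adjusted p in limma was 0.0918, the lowest of its alternatives, which reached up to 0.908.

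**Figure D5:**
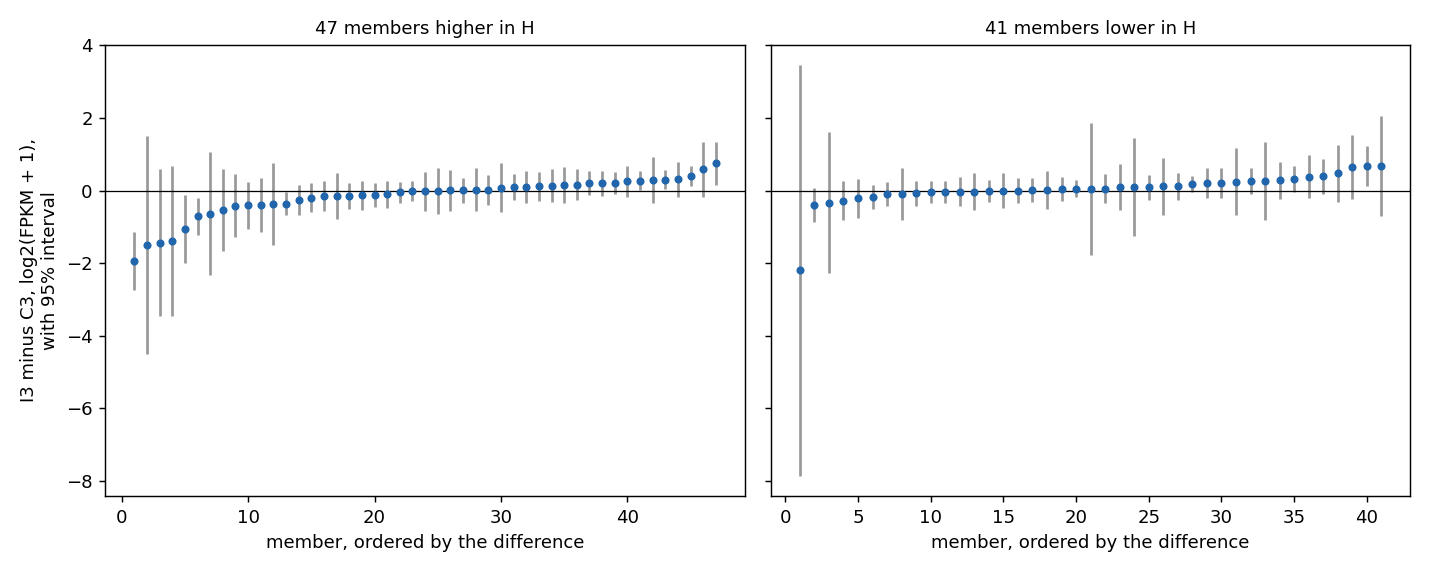
I3 minus C3 on the log2(FPKM + 1) scale for the 47 members higher and the 41 lower in H, in order of the difference. Points are estimates and bars 95% intervals from limma, none of which passed an adjusted p below 0.05, and most points lie near 0 (median size 0.19).

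At the limits of the rule, the members nearest to the size threshold differed from the other 9 libraries by 0.30 and 0.33 among those higher in H and by -0.32 and -0.33 among those lower in H. Just outside it were transcripts with 0.28 and 0.26, and with -0.29 and -0.29. The step that dropped transcripts removed 7, of which 2 were higher and 5 lower in H. The larger of those higher had 61.3, 54.2 and 54.6 FPKM in H, against 42.5, 49.7 and 45.4 FPKM in I3, 48.2, 40.01 and 38.4 FPKM in C3 and 28.5, 31.4 and 24.8 FPKM in N. In these transcripts I3 and C3 stood between H and N, and no library from the chamber reached the range of N.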

How the data were processed

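Per the submitters' processing notes, cutadapt, HISAT2 2.0.5 and StringTie were used, with no order or settings. These notes name the human build hg19. The rat build and annotation are not stated in the sources read for this work. The authors deposited 17254 transcripts in 12 libraries, with no unit named. The deposited values were taken as FPKM because StringTie is named, and TPM of a filtered list cannot be told apart. Depth is unknown, so precision rests on 3 libraries per group.

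Groups came from the titles. Values of at least 1 in at least 3 libraries kept 15435 transcripts, used as log2(FPKM + 1), a scale that understates changes of low transcripts. Limma 3.58.1 (R 4.3.3) fitted 4 group means over 12 libraries (8 residual degrees of freedom, mean-variance trend, two-sided, Benjamini-Hochberg). The fit was run on simulated data with independent normal values around the mean of each transcript. Such data lack the jumps of single libraries seen in some members, so that run does not test the fit on those. The members, lists and alternatives were chosen with earlier results of these data known. Transcripts named are those with the largest H difference, the largest I3 minus C3 difference and the highest abundance among the members, plus others chosen after their values were seen. The reference table of 47357 rat genes held 0 rat Ensembl transcript identifiers.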

Additional observations from a re-analysis of the deposited data

How the results depend on the processing

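A size threshold of 0.5 left 30 members higher and 24 lower in H, and a threshold of 1 left 10 and 9. Leaving out 1 library at a time gave 50 to 227 higher and 50 to 192 lower. Members called were 2 to 6 in H against N, 0 to 1 in I3 against N, 0 to 1 in C3 against N, 1 to 4 in I3 against H, 0 to 4 in C3 against H and 0 to 1 in I3 against C3, where all calls numbered 1 to 7. The H against N count was 4 without H replicate 1, C3 replicate 1 or C3 replicate 3, and 6 without N replicate 3. Without N replicate 3 the counts for I3 and C3 against H were both 4. Without H replicate 2 they were 1 and 0, and without H replicate 3 they were 1 and 1. That for I3 against H was also 1 without any one I3 library or N replicate 1 or 2. The count was 1 for I3 against N without N replicate 1, and 1 for C3 against N without C3 replicate 1 or 3 or N replicate 1 or 3. The I3 against C3 count was 1 without C3 replicate 1 or N replicate 3, and all calls there were 3 without H replicate 1, I3 replicate 1, C3 replicate 2 or N replicate 3, 6 without I3 replicate 2 or C3 replicate 1, 2 without I3 replicate 3, 7 without C3 replicate 3 and 4 without N replicate 1.

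Without H replicate 3 and I3 replicate 3 together, 169 members were higher and 145 lower. Members called were 1 in H against N. They were 0 in I3 against H and 0 in C3 against H (39 and 42 at an unadjusted p below 0.05 in limma). Nothing is read from counts against H, which the rule used. All calls in I3 against C3 were 4. Fitting only the groups compared gave 4 members in H against N, 4 in I3 against H and 1 in I3 against C3, where all calls numbered 15. A pseudocount of 0.1 gave 1 member in I3 against H, and a filter at 5 FPKM gave 3 calls in I3 against C3. What caused these shifts was not tested. Other counts of members found and called stayed within 1.5 times under these settings. Members with an unadjusted p below 0.05 fell to 3 in I3 against N and 3 in C3 against N, from 8 each, when only the groups compared were fitted. The H difference was followed only for members ranked 1 to 12 by size in each direction. Among these, 10 moved by more than their spread with a pseudocount of 0.1. The third lower in H also did so without H replicate 1. Of these, the seventh moved furthest among those higher in H, to 3.61 from 1.31. Over the left-out libraries the I3 minus C3 difference of the fourth higher in H ran from -2.29 to 0.0101, the latter without I3 replicate 3, alone or with H replicate 3. That of the eleventh lower in H ran from -0.0109, without I3 replicate 2, to 1.02.

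The replicate numbers come from library codes. Across groups, deviations of libraries with equal numbers correlated at -0.04 to 0.13 (18 pairs), and in 5 of 12 libraries the best correlation was with an equal number, so the samples were not treated as paired. With the number as a replicate block, 1 member was called in I3 against H, and the other counts of members stayed within 1.5 times. Depth is unknown, and 3 libraries per group limit every comparison.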

Other observations

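Across the 12 libraries, 1 pair of members ran parallel with a Pearson correlation above 0.99 of the log2 values. They were the members ranked 41 and 42 by size among those higher in H, and the value of one was 0.918 to 0.962 times that of the other in every library. The points share libraries and normalization. Whether both transcripts share reads was not tested.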
